A study of Mus musculus with 6 samples.

Results

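Histone genes were followed in whole corneas of C57BL/6J male mice that had been exposed to an open-field blast (open-field blast injury, OFBI) 12 months earlier. They were taken as all gene symbols that begin with Hist followed by a cluster number from 1 to 4, together with the 9 variant genes H1f0, H1fx, H2afx, H2afy, H2afz, H2afv, H2afj, H3f3a and H3f3b. This gave 76 of the 22007 gene symbols counted, of which 67 were replication-dependent genes and 9 were variant genes. The replication-dependent genes comprised 6 H1, 18 H2A, 18 H2B, 12 H3 and 13 H4 genes, and 54 of the 67 lie on chromosome 13. OFBI was given once to awake mice, by setting off 350 g of C-4 explosive 3 m away. Naive mice of the same strain and sex formed the other group, and their libraries carry the same time of 12 months. Each group had 3 RNA-seq libraries, and each library was made from RNA of pooled corneas.

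Histones package DNA. H2A, H2B, H3 and H4 form the octamer core of the nucleosome and H1 binds the linker DNA between cores. Replication-dependent histone genes lie in clusters, lack introns and are used mainly in S phase, and their mRNAs end in a conserved stem-loop in place of a poly(A) tail. Variant histone genes lie outside these clusters in most cases, and their mRNAs are polyadenylated and made throughout the cell cycle, also in cells that no longer divide. In the cornea, dividing cells are found chiefly in the basal epithelium and the limbus.

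Depth differed with the group. The OFBI libraries held 1173472 to 3410476 counts, against 41971752 to 47809779 counts in the Naive libraries, so depth and injury cannot be told apart. Levels are given as CPM (counts relative to the library total) with TMM scaling, and tests are edgeR's quasi-likelihood test over 13941 genes with Benjamini-Hochberg adjustment, two-sided, at a threshold of 0.05. Over all genes tested the median log2 fold change, OFBI over Naive, was -0.20. Corneal epithelial markers were abundant in every library, and their 6 genes summed to 56978.5 to 75418 CPM in OFBI corneas, against 28098.6 to 29125 CPM in Naive corneas. Markers of other cells were also seen. The 7 hepatocyte markers summed to 149, 180 and 903 CPM in the OFBI libraries, against 30.4, 36.4 and 41.4 CPM in the Naive libraries. The 8 lymphocyte markers summed to 48.2, 27.9 and 145 CPM in the OFBI libraries, against 6.401 to 6.59 CPM in the Naive libraries, and the B cell genes Cd79a and Ms4a1 were at 0 in all OFBI libraries. Of the 7 testis germ cell markers, 6 were at 0 in all OFBI libraries and 6 in all Naive libraries. The 6 keratocyte markers summed to 3949, 3131 and 4940.2 CPM in the OFBI libraries, against 892, 1073 and 1226 CPM in the Naive libraries, with Col1a1 and Col5a1 higher and Dcn and Ptgds lower. The 4 endothelial markers summed to 1029 to 1078 CPM in OFBI and 1064 to 1075 CPM in Naive libraries, with Slc4a11 and Col8a1 lower. The 8 striated muscle markers summed to 391.9 to 564 CPM in OFBI and 520.03 to 540.4 CPM in Naive libraries, with Myh6, Tnnt2 and Mb higher and Myh4 lower. The 6 erythroid markers summed to 13.1 to 27.5 CPM in OFBI and 61.4 to 76.4 CPM in Naive libraries, with Hba-a1 lower. The 5 pigment cell markers summed to 28.1 to 132 CPM in OFBI and 176 to 190.9 CPM in Naive libraries, and Tyr was at 0 in all OFBI libraries, against 7.47, 5.95 and 4.76 CPM in Naive libraries. OFBI replicate 3, the shallowest library, was the highest for hepatocyte and lymphocyte markers, and the part of these cells in the histone values was not tested. In whole tissue, fewer cells of a type and less RNA per cell cannot be told apart.

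As a whole the histone genes took a like share of each library. The 76 genes held 0.324%, 0.281% and 0.310% of counts in OFBI corneas, against 0.293%, 0.321% and 0.310% in Naive corneas. The 67 replication-dependent genes summed to 2327, 1927.5 and 1846 CPM in OFBI corneas, against 1509.9, 1845 and 1796 CPM in Naive corneas, a log2 ratio of group means of 0.24. With library size as the only scaling that log2 ratio was 0.04. The 9 variant genes summed to 1094, 1089 and 1554 CPM in OFBI corneas, against 1258, 1130.5 and 1069 CPM in Naive corneas, a log2 ratio of 0.11.

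Beneath these totals the classes of replication-dependent genes stood apart: the H4 sums of OFBI corneas lay above those of Naive corneas and the H2B sums below them. Of the 76 genes, 72 passed the filter on low counts, namely 63 replication-dependent and all 9 variant genes. The 4 that did not were Hist1h1t, Hist1h2aa, Hist1h2ba and Hist3h2ba, and the testis-type genes Hist1h1t, Hist1h2aa and Hist1h2ba were at or near 0 in every library. Of the 63 tested, 6 rose and 1 fell. Over all genes tested 18.8% passed the threshold, with 8.41% higher and 10.4% lower in OFBI corneas, so the share of replication-dependent genes that passed was near or below that of genes in general. By class, 5 of 13 H4 genes tested rose, beside 8.41% of all genes, and 1 of 16 H2B genes tested fell, beside 10.4% of all genes, so the H2B share was below that of genes in general. The sixth gene that rose was the H3 gene Hist1h3b, and the gene that fell was the H2B gene Hist1h2bb. No H1 or H2A gene passed the test with edgeR.

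**Figure D1:**
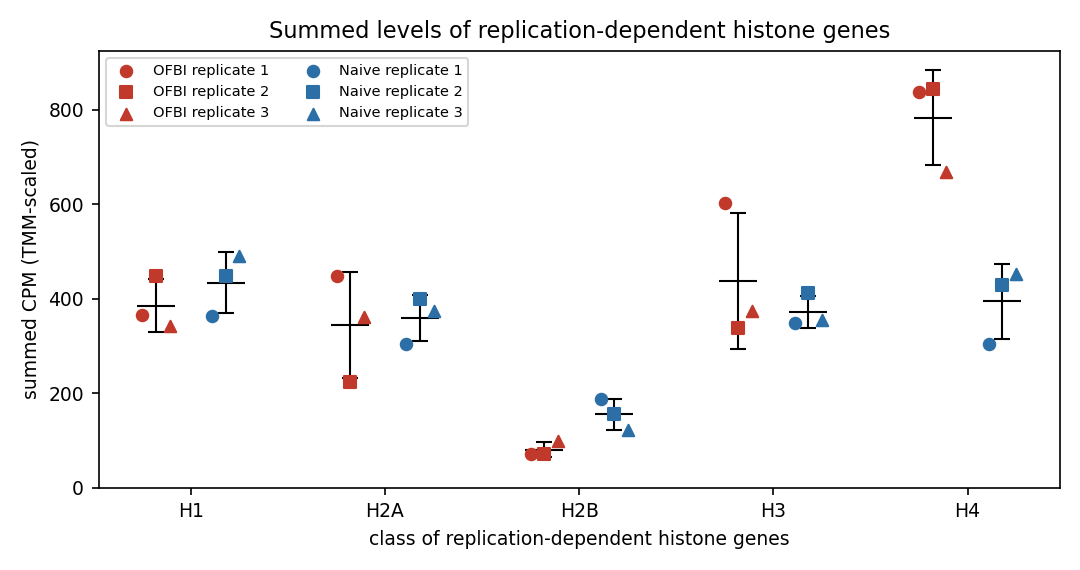
Summed CPM (TMM-scaled) of the replication-dependent genes of each histone class in each library, OFBI left of Naive; symbols are replicates 1 to 3, the horizontal line is the mean and the bar the SD over 3 libraries. The H4 sums of OFBI libraries sit between 668 and 845, above all Naive sums, and the H2B sums of OFBI libraries sit between 71.4 and 99.1, below all Naive sums.

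H4 forms a tetramer with H3 at the centre of the nucleosome, and its many genes encode the same protein. The 13 H4 genes summed to 839, 845 and 668 CPM in OFBI corneas, against 305, 429 and 452 CPM in Naive corneas. The groups did not overlap, and the ratio of the group means was 1.98. The counting intervals, taken at 4 counts per sequenced fragment, ran from 572 to 771 CPM in the shallowest OFBI library, against 439.5 to 464 CPM in the highest Naive library. All 13 H4 genes had log2 fold changes above 0, from 0.21 to 2.78 with a median of 1.00, where 40.9% of all genes tested were above 0. In 10 of the 13 every OFBI library lay above every Naive library, a pattern held by 16.4% of all genes tested.

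Hist1h4i (chr13:22040636-22041362, minus strand, GRCm38, 1 exon) had the highest log2 fold change of the class. It was at 19.8, 34.9 and 28.1 CPM in OFBI corneas, against 3.22, 4.31 and 4.47 CPM in Naive corneas. The difference was 2.78 ± 0.38 on the log2 scale (SE, edgeR adjusted p = 0.00993), and every OFBI library exceeded every Naive library. Hist1h4a (chr13:23760692-23761230, minus strand) was at 94.0, 139 and 123 CPM in OFBI corneas, against 30.03, 33.5 and 35.9 CPM in Naive corneas, a log2 fold change of 1.84 ± 0.20 (adjusted p = 0.00666). Hist1h4a was among the more abundant H4 genes of OFBI corneas by CPM per kilobase of exon, at 220.0 in OFBI and 61.5 in Naive corneas. Hist1h4b (chr13:23757013-23757409, plus strand) was at 108, 102 and 68.3 CPM in OFBI corneas, against 24.7, 35.2 and 32.7 CPM in Naive corneas, with a log2 fold change of 1.60 ± 0.24 (adjusted p = 0.0121). An annotated antisense gene covers all 397 bases of Hist1h4b. Whether the counting used strand is not given, so reads of both could not be told apart if it did not. Among the 76 histone genes, 27 are overlapped by an annotated gene on the opposite strand.

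Hist1h4j and Hist1h4c also rose. Hist1h4j (chr13:21735064-21735837, plus strand) was at 41.4, 35.5 and 53.3 CPM in OFBI corneas, against 15.1, 15.6 and 17.3 CPM in Naive corneas, a log2 fold change of 1.43 ± 0.25 (adjusted p = 0.0163). Hist1h4c (chr13:23697635-23698454, minus strand) was at 65.2, 65.3 and 65.5 CPM in OFBI corneas, against 20.9, 35.0 and 37.2 CPM in Naive corneas, a log2 fold change of 1.07 ± 0.26 (adjusted p = 0.0327). In both genes the groups were separate. Hist1h4d and Hist1h4h, which ranked with Hist1h4a as the H4 genes of highest CPM, did not pass. Hist1h4d was at 163, 110 and 85.1 CPM in OFBI corneas, against 66.6, 115 and 106 CPM in Naive corneas, and the groups overlapped. Hist1h4h was at 85.9, 109 and 61.7 CPM in OFBI corneas, against 26.9, 46.9 and 55.9 CPM in Naive corneas, with an adjusted p of 0.0760.

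The H4 calls depended on the Naive libraries and the tool. Without OFBI replicate 3 edgeR called 9 of 13 H4 genes higher, with a median of 1.17. DESeq2 called 10 of the 13 H4 genes higher and limma-voom 4. With replicate number as a block in the edgeR fit 3 of 13 were called, and Hist1h4c and Hist1h4j missed the threshold. Hist1h4b missed it with the GC and length trend removed (1.00, adjusted p = 0.0881). Hist1h4c also missed it with limma-voom, with library size only and without OFBI replicate 1 or 2 (adjusted p 0.0576 to 0.0778). Without Naive replicate 1, 2 or 3, edgeR called 1, 0 and 1 of them, with 9 of 13 at an unadjusted p below 0.05 each time; DESeq2 called 5, 5 and 9 and limma-voom 8, 7 and 9. Without Naive replicate 2 edgeR called 0 genes among all 12094 tested, with 1444 higher and 997 lower at an unadjusted p below 0.05, where DESeq2 called 1010 higher and 479 lower and limma-voom 1037 and 529.

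H2B pairs with H2A into the dimers that flank the H3-H4 tetramer. The 18 H2B genes summed to 71.4, 71.4 and 99.1 CPM in OFBI corneas, against 188, 156 and 122 CPM in Naive corneas, a ratio of group means of 0.519. The groups did not overlap, but the sums rested on 231, 223 and 106 counts in OFBI libraries, against 5559 to 9501 in Naive libraries. At 4 counts per fragment the counting interval of OFBI replicate 3 ran from 63.5 to 142.5 CPM, which takes in the value of Naive replicate 3. All 16 H2B genes tested had log2 fold changes below 0, from -2.63 to -0.32 with a median of -1.04, where 40.9% of all genes tested were above 0. In 7 of the 16, each OFBI library lay below all Naive libraries, a pattern held by 29.9% of all genes tested. The shared direction depended in part on the filter, which genes low in OFBI libraries could pass through the deeper Naive libraries. Hist1h2bm, for one, had 8, 0 and 0 counts in OFBI libraries, against 242, 186 and 87 in Naive libraries. With no filter 1 of 18 H2B genes was above 0, and without OFBI replicate 1 it was 2 of 17.

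Only Hist1h2bb (chr13:23746734-23747241, plus strand) passed the test among H2B genes with edgeR. It was at 1.24, 1.28 and 0 CPM in OFBI corneas, against 6.87, 6.10 and 5.62 CPM in Naive corneas, with a log2 fold change of -2.63 ± 0.72 (adjusted p = 0.0453). The OFBI values stood for 8 counts, about 2 fragments, against 886 counts in Naive corneas, and the ratio by counting alone was 0.173 with an exact 95% interval from 0.0208 to 0.631. The call was absent with no filter, with Naive counts thinned down to OFBI replicate 1, without OFBI replicate 1 and without any 1 Naive library (adjusted p 0.0555 to 0.234). It was also absent with replicate number as a block in the fit. With all libraries thinned to OFBI replicate 3 the gene was not tested. The 3 H2B genes of highest CPM did not pass. Hist1h2bg was at 5.87, 6.08 and 9.35 CPM in OFBI corneas, against 22.1, 16.3 and 13.4 CPM in Naive corneas (log2 fold change -1.33 ± 0.41, adjusted p = 0.0631). Hist1h2bc, whose annotated transcript has 2 exons, was at 10.5, 18.6 and 28.1 CPM in OFBI corneas, against 37.2, 35.8 and 30.9 CPM in Naive corneas. Hist2h2bb on chromosome 3 was at 10.2, 13.8 and 15.9 CPM in OFBI corneas, against 16.1, 22.2 and 16.02 CPM in Naive corneas. In all 3 genes every OFBI value lay below every Naive value. Of 17 other settings, Hist1h2bg was called lower in 5, among them DESeq2 (adjusted p = 0.00801), and Hist1h2bc in 2. Hist2h2bb was called in none.

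**Figure D2:**
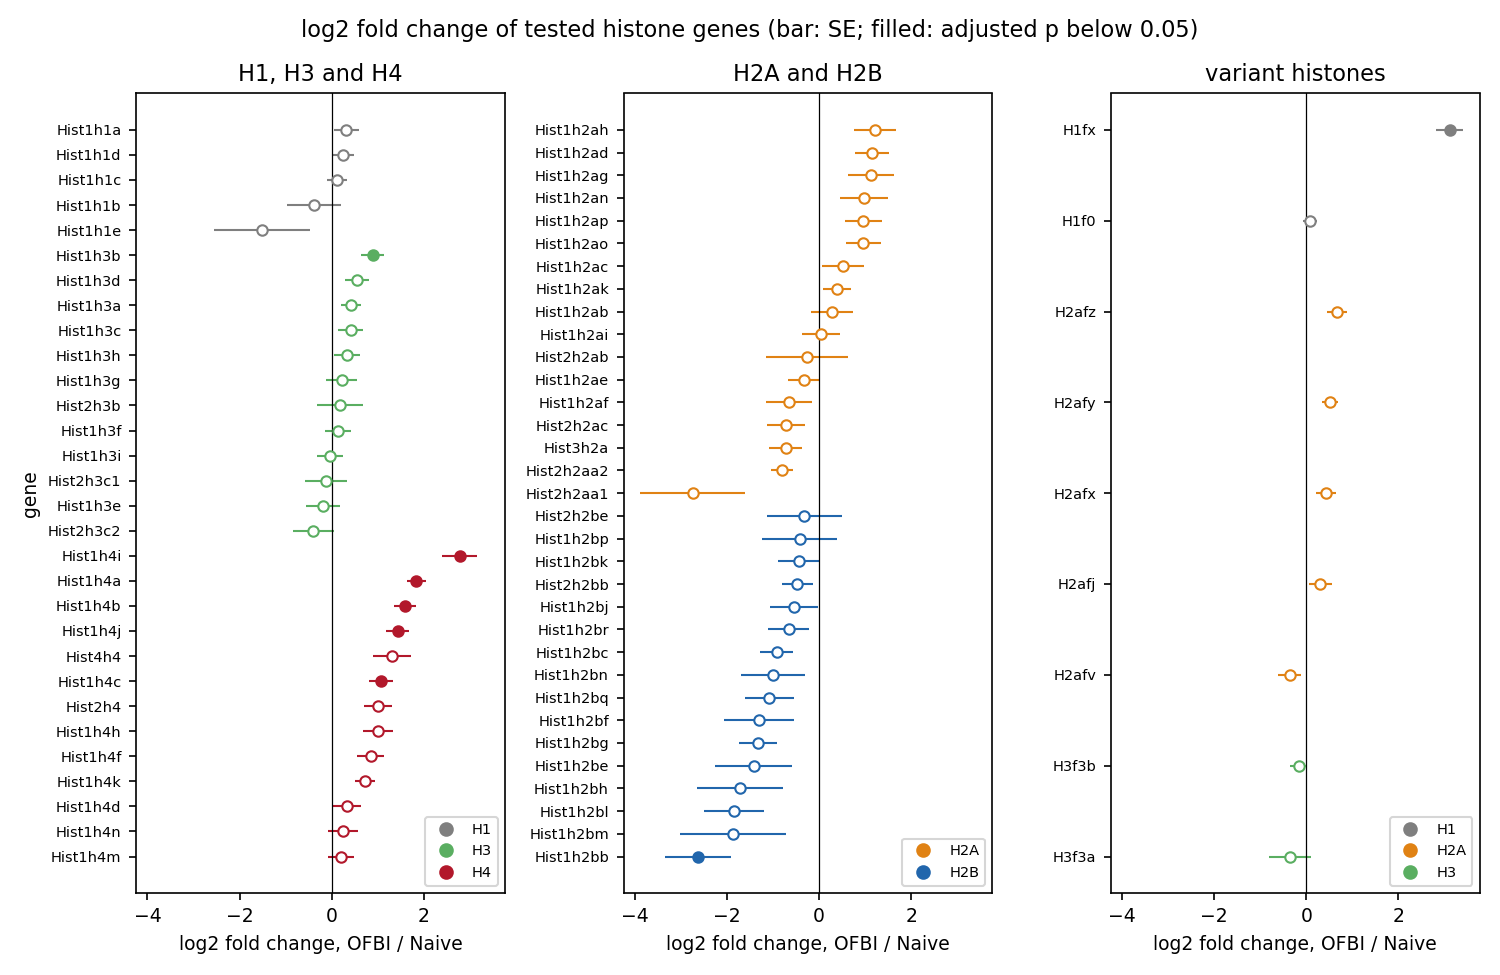
log2 fold change, OFBI over Naive, of the 72 tested histone genes with its SE, by class; filled points have an edgeR adjusted p below 0.05. All 13 H4 points lie right of 0 and all 16 H2B points left of 0, while H1fx, at 3.11, is the highest of all.

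Set against each other, the 2 classes kept apart in every library. The H4 sum was 11.7, 11.8 and 6.74 times the H2B sum in OFBI corneas, against 1.62, 2.75 and 3.69 times in Naive corneas. Of the counts on the 4 core classes, H2B genes held 3.64%, 4.83% and 6.60% in OFBI corneas, against 16.4%, 11.2% and 9.38% in Naive corneas. H4 genes held 42.8%, 57.2% and 44.4% in OFBI corneas, against 26.6%, 30.7% and 34.6% in Naive corneas. Among the Naive libraries themselves the library with the highest H2B sum, replicate 1, had the lowest H4 sum. The classes have like medians of GC content, 55.9% in H2B genes and 56.2% in H4 genes, and of exonic length, 569 and 539 bases. Single genes ran from 43.78% to 63.25% GC in H2B and from 43.84% to 65.38% in H4. What GC content and length add to the difference between the classes was not tested.

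The class medians were recomputed under 17 other settings. The H4 median stayed between 0.80 and 1.26 and the H2B median between -1.31 and -0.82. With a trend on GC content and length removed, 10 of 13 H4 genes were above 0 and 5 were called higher, while 16 of 16 H2B genes were below 0 and 3 were called lower. With every library thinned down to OFBI replicate 3, 13 of 13 H4 genes were above 0, and the 3 H2B genes still tested were all below 0. The H2A median ran from -0.60 to 0.58 and the H3 median from -0.36 to 0.39, so neither had a stable direction.

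**Figure D3:**
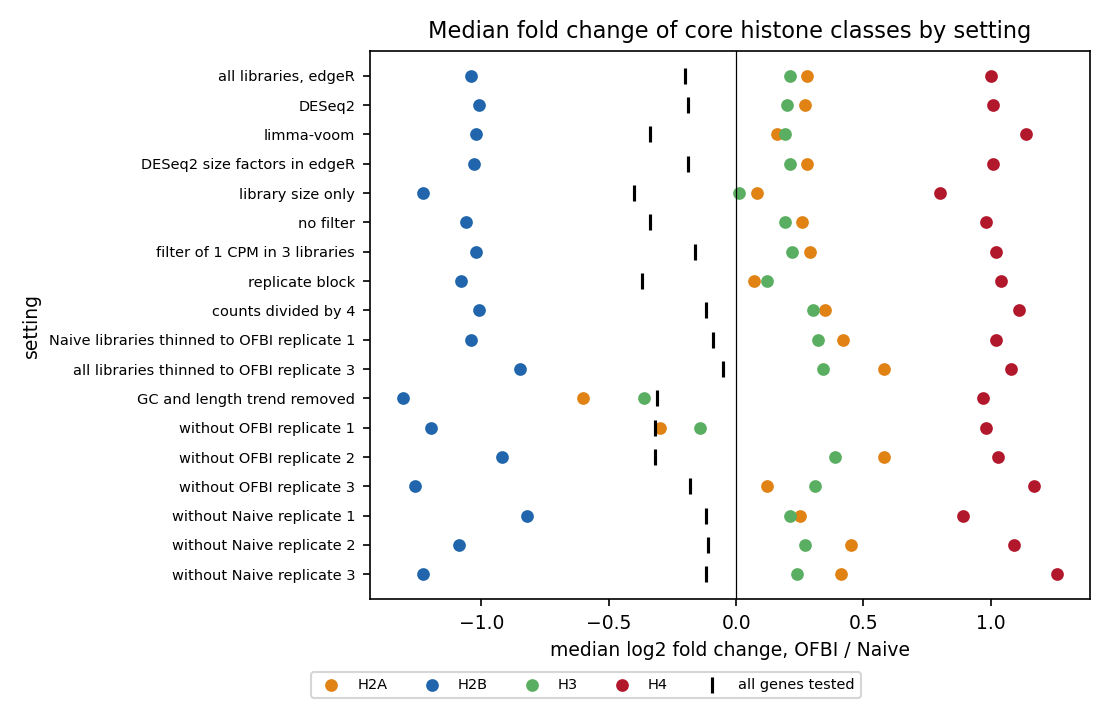
Median log2 fold change, OFBI over Naive, of the tested H2A, H2B, H3 and H4 genes in the edgeR fit of all libraries and 17 other settings; black ticks are the median of all genes tested. H4 medians lie between 0.80 and 1.26 and H2B medians between -1.31 and -0.82, with H2A and H3 on either side of 0.

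Histone gene copies are near-identical, so counts of single genes may be shared out between copies by the authors' counting. By 50-base windows of the annotated transcripts, a median of 39.5% of an H4 gene and 47.5% of an H2B gene was also present in another gene, against 73.0% for H2A, 62.0% for H3 and 1.13% for H1. The H4 genes with up to 50% of their windows shared had a median log2 fold change of 1.07 (9 of 9 above 0), and those with more had 0.49 (4 of 4 above 0). The H2B genes with up to 50% shared had a median of -1.37 (0 of 8 above 0), and those with more had -0.83 (0 of 8 above 0). Hist1h4i, Hist1h4j and Hist1h4c shared 28.9%, 24.6% and 19.6% of their windows, and Hist1h4b shared 75.9%.

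The stem-loop at the 3′ end that defines these mRNAs was looked for in the GENCODE transcripts as a 16-base hairpin that begins with GG, ends with CC and pairs 6 bases on either side of the loop. It was present in 44 of the 67 replication-dependent genes and in the variant gene H2afx, against 0.251% of 21924 protein-coding genes. The 23 without it include 11 whose annotated transcript is of coding length only. All 11 H4 genes with the hairpin carried a form found in no other replication-dependent class, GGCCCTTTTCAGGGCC in 7, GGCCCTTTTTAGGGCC in 2 and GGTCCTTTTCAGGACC in 2, while 8 of 10 H2B genes carried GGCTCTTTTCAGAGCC. The sites of genes that passed the test and hold the hairpin are shown with those of the H2B gene Hist1h2bg and of H2afx. They are written as DNA from 5′ to 3′, and capitals mark the hairpin.
Hist1h4i: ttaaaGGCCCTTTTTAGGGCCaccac
Hist1h4c: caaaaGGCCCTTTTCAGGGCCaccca
Hist1h4b: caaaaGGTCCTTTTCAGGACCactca
Hist1h4j: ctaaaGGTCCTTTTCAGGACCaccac
Hist1h3b: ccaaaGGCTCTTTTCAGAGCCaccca
Hist1h2bb: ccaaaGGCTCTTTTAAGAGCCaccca
Hist1h2bg: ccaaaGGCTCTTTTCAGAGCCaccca
H2afx: acaaaGGCCCTTTTAAGGGCCaccac

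H3 and H2A genes share the form most frequent in H2B genes. The mRNA of H2afx is known both with the stem-loop end and with a poly(A) tail. Whether the hairpin bears on the levels was not tested. Annotated transcripts ran more than 200 bases past the hairpin in 18 replication-dependent genes, such as Hist1h4c and Hist1h4i. Whether the libraries were made from polyadenylated or rRNA-depleted RNA is not given in the sources used here.

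H2A genes, the partners of H2B, showed no common direction. Their sums were 449, 224 and 361 CPM in OFBI corneas, against 305, 399 and 375 CPM in Naive corneas, and the groups overlapped. Of the 17 tested, 10 were above 0 and 7 below, with a median of 0.28. By edgeR 0 passed at the adjusted threshold while 6 had an unadjusted p below 0.05. The near-identical neighbours Hist2h2aa1 and Hist2h2aa2 on chromosome 3 were read as a sum. Together they were at 59.7, 29.5 and 34.6 CPM in OFBI corneas, against 87.5, 129 and 134 CPM in Naive corneas, with no overlap. Alone, Hist2h2aa1 was at 22.9, 0 and 0 CPM in OFBI corneas, against 43.5, 63.8 and 67.1 CPM in Naive corneas. By counting alone, 0 allows up to 3.84 and 11.2 CPM at the depth of OFBI replicates 2 and 3. Both genes shared 100% of their 50-base windows with other genes, so that limit does not cover counts placed on another copy. Hist2h2aa2 was at 36.8, 29.5 and 34.6 CPM in OFBI corneas, against 44.0, 65.3 and 66.6 CPM in Naive corneas, a log2 fold change of -0.81 ± 0.24 that missed the threshold (adjusted p = 0.0548). In 3 of 17 other settings Hist2h2aa2 was called lower. These were DESeq2 (adjusted p = 0.016), edgeR with library size only (0.03) and edgeR with the GC and length trend removed (-1.84, adjusted p = 0.0153). Hist1h2ab was at 70.5, 19.8 and 29.0 CPM in OFBI corneas, against 27.2, 37.6 and 35.0 CPM in Naive corneas. Hist1h2ak was at 38.0, 25.3 and 52.4 CPM in OFBI corneas, against 24.5, 31.7 and 30.5 CPM in Naive corneas. Both overlapped between groups, and the log2 fold change of Hist1h2ak, 0.39 ± 0.30, was -1.04 with the GC and length trend removed (adjusted p = 0.0238).

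Many H2A and H2B genes sit head to head and share the DNA between their starts. There were 12 such pairs with starts within 500 bases, and in 11 both genes were tested, 176 to 302 bases apart. The log2 fold change of the H2A gene was above that of its H2B partner in 10 of the 11 pairs, with a median difference of 1.62. The H2B partners rested on 1 to 58 counts per OFBI library, and genes low in OFBI could pass the filter through the Naive libraries. By 50-base windows the H2A partners shared 14.1% to 93.5% of their transcripts with other genes, so the pairs are not separate readings. In 9 pairs the H2A gene was above 0 and its partner below 0. The exception was Hist2h2ac with Hist2h2be, at -0.71 and -0.32. With the GC and length trend removed, 10 of 11 pairs still had the H2A gene higher, with a median difference of 1.01. The opposite signs did not hold in most pairs under that setting. Of all 17 H2A genes tested, 2 were then above 0 and 15 below, and all 16 H2B genes were below 0. The 2 were Hist1h2ad at 0.47 and Hist1h2ac at 0.71. Summed over the 11 pairs, H2A genes had 5.68, 2.84 and 3.26 times the counts of H2B genes in OFBI corneas, against 0.996, 1.56 and 1.64 times in Naive corneas. The groups did not overlap on this ratio, and no test was made because the pairs share their libraries.

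**Figure D4:**
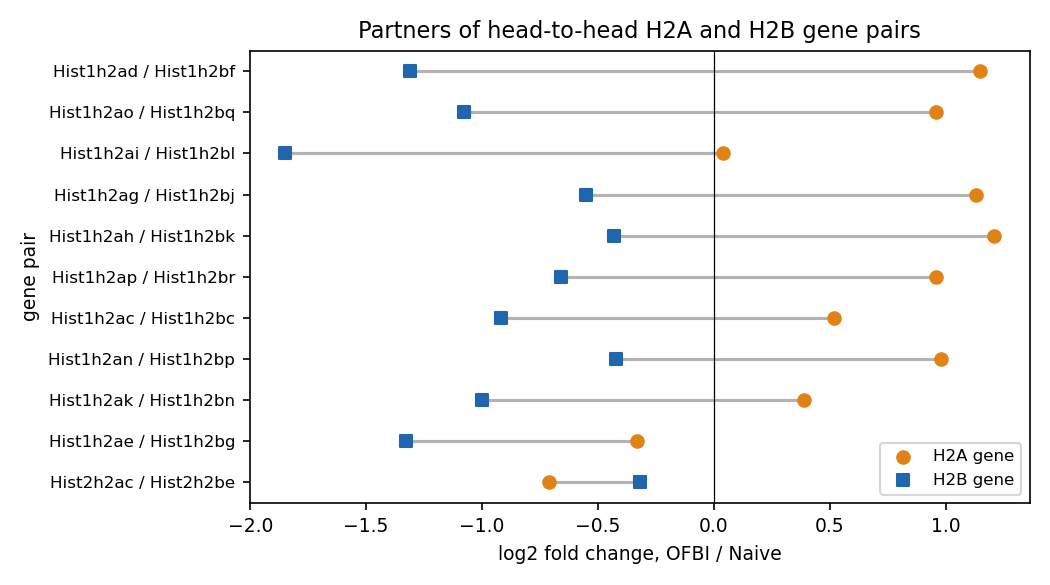
log2 fold change, OFBI over Naive, of both partners of the 11 head-to-head H2A and H2B gene pairs in which both were tested. The H2A point lies right of the H2B point in 10 pairs, and the pair at the bottom, Hist2h2ac and Hist2h2be, is the exception.

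Hist1h2ad and Hist1h2bf were the pair furthest apart, with starts 185 bases from each other. Hist1h2ad was at 32.8, 16.3 and 21.5 CPM in OFBI corneas, against 9.42, 11.6 and 10.99 CPM in Naive corneas (log2 fold change 1.15 ± 0.36, adjusted p = 0.0668). Hist1h2bf was at 0.927, 2.56 and 6.55 CPM in OFBI corneas, against 10.3, 6.49 and 5.31 CPM in Naive corneas (log2 fold change -1.31 ± 0.76, adjusted p = 0.286). Neither passed the test on its own. The OFBI values of Hist1h2bf rested on 3, 8 and 7 counts. By 50-base windows, Hist1h2ad and Hist1h2bf shared 67.1% and 65.8% of their transcripts with other genes, so their counts may include those of other copies. The RefSeq promoter window of Hist1h2ad, chr13:23574131-23574430 on the plus strand (GRCm38.p6, 250 bases before to 50 after the start), holds the whole stretch between both starts. Windows were searched on both strands for the CCAAT box, for the TATA box letters TATAAA, for the octamer ATTTGCAT and for the hexamer written GGTCCG, none of which contains another. Capitals mark the matches on either strand.
Hist1h2ad promoter: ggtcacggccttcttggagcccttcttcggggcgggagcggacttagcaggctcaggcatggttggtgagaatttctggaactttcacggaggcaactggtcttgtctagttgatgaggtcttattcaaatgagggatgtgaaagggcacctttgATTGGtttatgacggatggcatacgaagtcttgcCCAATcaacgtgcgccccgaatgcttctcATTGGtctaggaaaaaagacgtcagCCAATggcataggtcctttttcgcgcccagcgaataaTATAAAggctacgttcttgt

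Promoter windows were matched for 61 of the 67 replication-dependent genes and 8 of the 9 variants. Among replication-dependent genes, CCAAT was present in all 6 H1, 17 H2A, 16 H2B and 10 H3 windows but in 3 of the 12 H4 windows. Of all 32851 promoter windows 37.4% held it. The hexamer GGTCCG was chosen after the H4 windows had been read. In these genes it was present in 11 of 12 H4 windows, 1 of 16 H2B, 1 of 10 H3 and no H2A or H1 window. Of all windows 8.25% held it. The octamer ATTTGCAT was present in 7 of 17 H2A and 6 of 16 H2B windows of these genes and in no H3, H4 or H1 window. Of all windows 1.74% held it. Among variant windows, CCAAT was in 3 of 4 H2A and 2 of 2 H3 windows. GGTCCG was in 1 of 2 variant H1 and 2 of 4 variant H2A windows, and ATTTGCAT in 1 of 2 variant H3 windows. A match is a description of letters and not a site in use. The window of Hist1h4i, chr13:22041313-22041612 on the minus strand, shows the H4 type.
Hist1h4i promoter: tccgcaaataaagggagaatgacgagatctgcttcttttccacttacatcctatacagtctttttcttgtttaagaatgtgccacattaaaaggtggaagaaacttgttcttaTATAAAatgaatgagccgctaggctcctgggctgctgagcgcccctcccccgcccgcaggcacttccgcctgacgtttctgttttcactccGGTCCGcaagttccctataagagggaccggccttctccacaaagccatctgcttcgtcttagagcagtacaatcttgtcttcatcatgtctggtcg

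The H3 genes encode the replication-dependent partners of H4. They summed to 603, 337 and 375 CPM in OFBI corneas, against 349, 412 and 356 CPM in Naive corneas, and without OFBI replicate 1 the log2 ratio of the group means, 0.24, was -0.10. Of 12 tested, 8 were above 0, with a median of 0.21, and Hist1h3b rose. Hist1h3b (chr13:23752267-23752886, plus strand) was at 97.1, 55.1 and 63.6 CPM in OFBI corneas, against 38.1, 41.3 and 37.2 CPM in Naive corneas, a log2 fold change of 0.89 ± 0.25 (adjusted p = 0.0459). The groups were separate, but with the GC and length trend removed the log2 fold change was 0.21 and the call ended. It ended in 9 of 17 other settings (adjusted p 0.0696 to 0.606), among them library size only, no filter, Naive counts thinned down to OFBI replicate 1, the replicate block, each Naive library left out and OFBI replicate 1 left out. Hist1h3e was at 64.9, 30.7 and 26.2 CPM in OFBI corneas, against 36.4, 54.8 and 49.1 CPM in Naive corneas. Hist2h3b was at 83.5, 32.0 and 17.8 CPM in OFBI corneas, against 34.0, 42.7 and 43.4 CPM in Naive corneas. In both the OFBI libraries spread more widely than the Naive ones.

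The replication-dependent linker histones of the H1 class did not separate the groups. They summed to 365, 449 and 343 CPM in OFBI corneas, against 363, 449 and 491 CPM in Naive corneas. Of the 5 tested, 3 were above 0, the median log2 fold change was 0.12, and 0 passed or had an unadjusted p below 0.05 with edgeR. Hist1h1c, which encodes H1.2, was at 187, 222 and 155 CPM in OFBI corneas, against 129.6, 184 and 206 CPM in Naive corneas. Hist1h1d was at 78.8, 46.7 and 68.3 CPM in OFBI corneas, against 48.1, 55.5 and 59.5 CPM in Naive corneas. Hist1h1e, which encodes H1.4, was at 0, 62.4 and 55.2 CPM in OFBI corneas, against 109.5, 109.0 and 109.9 CPM in Naive corneas. The 0 in OFBI replicate 1 allows up to 3.71 CPM. With it the log2 fold change was -1.52 ± 1.04 (adjusted p = 0.358), and without that library the log2 fold change was -0.92 ± 0.16 and passed the test (adjusted p = 0.0280). Hist1h1e shares 496 bases with the annotated span of Hist1h2be on the same strand.

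Of the 9 variant histone genes, 1 rose and 0 fell with edgeR, beside 8.41% and 10.4% of all genes tested; 3 had an unadjusted p below 0.05, all higher, and DESeq2 called 3 higher and 0 lower. The gene that rose was the linker histone gene H1fx, which encodes H1.10. H1fx (chr6:87980421-87981637, minus strand, 1 exon) was at 47.6, 40.3 and 67.3 CPM in OFBI corneas, against 5.31, 6.23 and 6.30 CPM in Naive corneas. Every OFBI library lay far above every Naive library. On the log2 scale the difference was 3.11 ± 0.29 (edgeR adjusted p = 0.00613), the highest among the 72 histone genes tested. It supplied 7.53%, 5.93% and 9.85% of all linker histone counts in OFBI corneas, against 0.910%, 0.925% and 0.892% in Naive corneas. The call was absent without Naive replicate 2 (3.18 ± 0.40, adjusted p = 0.0548), and DESeq2 and limma-voom made it there. Without OFBI replicate 3, the library of highest H1fx and of highest hepatocyte and lymphocyte markers, the value was 2.88 ± 0.20 (adjusted p = 0.00204).

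H1fx is also the histone gene of highest GC content, at 71.3%. Over 13806 tested genes the log2 fold change and GC content had a Spearman rho of 0.30, and over the 72 histone genes 0.16, as a description of genes that share libraries. Among the 8 other tested genes within 2 percentage points of its GC content, the median log2 fold change was 1.31 and 1 gene was at or above 3.11. With the GC and length trend removed, H1fx was at 1.10 with an adjusted p of 0.0285. An annotated antisense gene covers 755 bases of H1fx, and whether the counting used strand is not given in the sources used here, so reads of both could not be told apart if it did not.

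The RefSeq promoter window of H1fx, chr6:87981433-87981732 on the minus strand, is shown because this gene had the highest log2 fold change among the histone genes. It holds neither CCAAT nor TATAAA, and its GGTCCG match is in capitals.
H1fx promoter: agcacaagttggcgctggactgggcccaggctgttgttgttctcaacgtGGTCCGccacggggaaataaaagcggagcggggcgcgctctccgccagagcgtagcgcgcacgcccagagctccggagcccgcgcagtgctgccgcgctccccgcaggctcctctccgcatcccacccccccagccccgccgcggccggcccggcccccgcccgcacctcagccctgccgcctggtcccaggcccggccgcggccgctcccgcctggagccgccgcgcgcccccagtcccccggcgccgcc

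H1f0 encodes H1.0, a linker histone typical of cells that have left the cell cycle. It was at 219.8, 190.2 and 273 CPM in OFBI corneas, against 215, 218 and 209 CPM in Naive corneas, a log2 fold change of 0.08 ± 0.16 (adjusted p = 0.765). The groups overlapped, and by CPM per kilobase it was at 111 in OFBI and 104 in Naive corneas, against 42.5 and 4.89 for H1fx.

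Among the H2A variants, 3 had groups that did not overlap but missed the threshold. H2afz, which encodes the H2A.Z found near active promoters, was at 126, 110.5 and 178 CPM in OFBI corneas, against 92.3, 92.8 and 72.6 CPM in Naive corneas (log2 fold change 0.67 ± 0.22, adjusted p = 0.0725). H2afy, which encodes macroH2A1, was at 125.5, 159 and 169 CPM in OFBI corneas, against 94.9, 107 and 113 CPM in Naive corneas (0.52 ± 0.17, adjusted p = 0.0705). H2afx, which encodes the H2A.X phosphorylated at DNA breaks, was at 98.9, 97.0 and 130.0 CPM in OFBI corneas, against 61.8, 84.3 and 94.6 CPM in Naive corneas (0.43 ± 0.22, adjusted p = 0.219). DESeq2 called H2afz and H2afy higher, with adjusted p of 0.0272 and 0.0179, and the sign of H2afx turned, to -0.55, with the GC and length trend removed. By 50-base windows H2afz shared 69.6% of its transcript with other genes, the highest share among the 9 variants, so its counts may include those of other genes. H2afv, the second H2A.Z gene, was at 19.8, 25.9 and 31.8 CPM in OFBI corneas, against 32.2, 35.1 and 30.6 CPM in Naive corneas. H2afj was at 34.0, 30.1 and 35.5 CPM in OFBI corneas, against 20.6, 28.2 and 32.1 CPM in Naive corneas. Both overlapped between groups.

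H3f3a and H3f3b encode the same protein, H3.3, which replaces H3 outside replication. H3f3b was at 299, 326 and 301 CPM in OFBI corneas, against 423, 342 and 277 CPM in Naive corneas (log2 fold change -0.17 ± 0.18, adjusted p = 0.551). H3f3a was at 122.7, 110.8 and 368.5 CPM in OFBI corneas, against 313, 216 and 234 CPM in Naive corneas, and the 3 OFBI libraries lay on either side of the Naive ones. OFBI replicate 3, the library with the highest hepatocyte and lymphocyte marker sums, was the high value, and the part of those cells in it was not tested. Without that library H3f3a was called lower, at -1.13 ± 0.19 (adjusted p = 0.0110). H3.3 genes supplied 41.2%, 56.4% and 64.1% of all H3 counts in OFBI corneas, against 67.8%, 57.6% and 58.9% in Naive corneas.

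**Figure D5:**
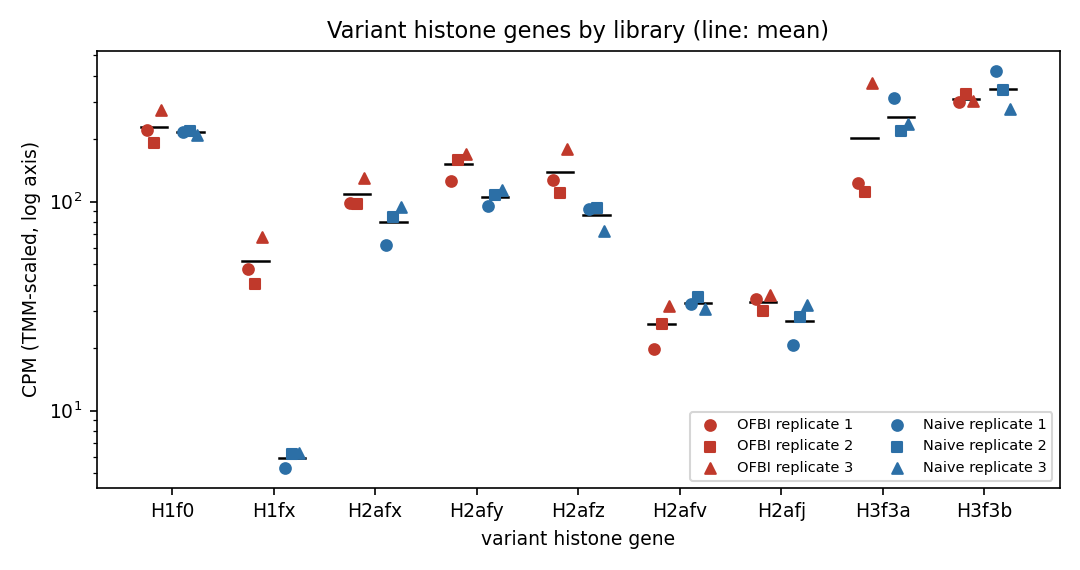
CPM (TMM-scaled, log axis) of the 9 variant histone genes in each library, OFBI left of Naive; symbols are replicates 1 to 3 and the line is the mean of 3 libraries. H1fx stands apart, at 40.3 to 67.3 in OFBI and 5.31 to 6.30 in Naive libraries, and OFBI replicate 3 is the high point of H3f3a.

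Genes that act on histones or with them were read from lists. Of 20 tested genes for the making and decay of histone mRNA, 4 rose and 1 fell, 25% of the list beside 18.8% of all genes tested; the median over the list was 0.09 on the log2 scale. Fip1l1, a subunit of the cleavage and polyadenylation complex, was at 174, 100.2 and 141 CPM in OFBI corneas, against 57.4, 49.3 and 51.0 CPM in Naive corneas (1.40 ± 0.22, adjusted p = 0.0139). Srrt, which encodes the cap-binding partner ARS2, was at 177.4, 201.7 and 194.5 CPM in OFBI corneas, against 105, 91.8 and 87.5 CPM in Naive corneas (1.01 ± 0.14, adjusted p = 0.0103). The other genes that rose were Ncbp3 and the RNA helicase gene Upf1, and the exonuclease gene Dis3l2 fell. Of 28 histone chaperone genes, 4 rose and 0 fell with edgeR, 14.3% of the list beside 18.8% of all genes tested, with a median of 0.13. These were Anp32e, which removes H2A.Z (1.79 ± 0.25, adjusted p = 0.00994), Chaf1a, the large subunit of the chromatin assembly factor CAF-1 (1.45 ± 0.25, adjusted p = 0.0169), Rbbp7 and Set.

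The part of DNA replication in the H4 and H2B differences was not tested. Among 37 DNA replication and S phase genes 0 passed the test with edgeR, beside 18.8% of all genes tested. Their median log2 fold change was -0.30, and they summed to 897, 879.7 and 1229.9 CPM in OFBI corneas, against 1173, 1099.7 and 1107 CPM in Naive corneas. The 2 with the smallest p were Mki67, the proliferation marker, at -0.74 ± 0.21 (adjusted p = 0.0535), and the replication helicase gene Gins4 at 0.87 ± 0.27 (adjusted p = 0.0616). Both lay close to the threshold, and every OFBI library was below every Naive library for Mki67 and above for Gins4. Of the 2 other variant genes tested, the centromere gene Cenpa was at 0.45 ± 0.34 and the macroH2A2 gene H2afy2 at -0.95 ± 0.80, and neither passed. Other genes with like structure were also read. Of 324 single-exon protein-coding genes that are not histone genes, 65 rose and 16 fell, with a median of 0.37. Of 288 genes shorter than 1000 bases, 30 rose and 38 fell, with a median of -0.06. The shares that rose were 20.1% and 10.4%, beside 8.41% of all genes tested. In either direction 25% and 23.6% passed, beside 18.8% of all genes tested.

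By CPM per kilobase of exon, the histone genes of highest level changed places between groups. In OFBI corneas Hist1h4b (234), Hist1h4a (220.0), Hist1h4k (213) and Hist1h4h (182) led the replication-dependent genes, followed by Hist1h1c (120.5). In Naive corneas Hist1h4k (129), Hist1h1c and Hist2h2aa2 (111 each), Hist2h2aa1 (99.2) and Hist1h4h (92.0) led. Among variants the order in OFBI corneas was H1f0 (111), H3f3b (104), H2afx (78.5), H2afz (77.8) and H3f3a (57.3), and in Naive corneas H3f3b (117), H1f0 (104), H3f3a (72.6), H2afx (58.0) and H2afz (48.4). These ranks are group means, and the order of neighbours was not tested.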

How the data were processed

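RNA of pooled mouse corneas was sequenced in 6 libraries, 3 OFBI and 3 Naive, with a KAPA stranded kit, per the labels' protocols. The authors deposited whole-number estimated counts per gene symbol, 1 table per library; per the submitters' processing notes the build was GRCm38 and the tools were HISAT2, StringTie, DESeq2 and FastQC, without versions. The annotation, the strand setting and the RNA selection are not given in those sources. Of values from 1 to 40, 39.4% to 50.5% per library were multiples of 4, so about 4 counts were taken per fragment and a count of 0 was given a limit of 12 counts; intervals (95%, exact Poisson) cover counting error only.

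The 22040 rows per table were summed to 22007 symbols. edgeR 4.0.16 (filterByExpr, TMM, quasi-likelihood) was fitted in R 4.3.3 and tested on simulated data; DESeq2 1.42.0 and limma-voom (limma 3.58.1), other scalings and filters, thinning, a GC and length trend and leaving out each library were alternatives. The genes named were all 9 variants, the 3 replication-dependent genes of highest mean CPM in each class, every replication-dependent gene past the threshold and, in each list, the 2 tested genes of smallest p; other genes were named after their values were seen. The histone genes and lists were chosen with earlier results of these data known. All 76 genes matched GENCODE vM21 by symbol; promoters are RefSeq sequences of GRCm38.p6, and a window was kept when it lay on the gene's strand near the annotated gene. The value of 1 marker gene is not reported here. A list of 18 RNAs without a poly(A) tail had 0 genes in the tables. The 6 libraries carry 1 batch number. Nothing says that pools of a group shared no animals, so p-values measure the spread between these pools.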

Additional observations from a re-analysis of the deposited data

How the results depend on the processing

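The edgeR fit of all libraries called 1173 genes higher and 1446 lower in OFBI corneas. The number higher was 1854 with DESeq2 and 737 with the GC and length trend removed, and 0 to 1611 when 1 library was left out. The number lower was 910 with no filter, 579 with Naive counts thinned down to OFBI replicate 1 and 414 with all libraries thinned to OFBI replicate 3, and 0 to 2065 when 1 library was left out. The 6 replication-dependent genes called higher became 13 with DESeq2 and 13 with counts divided by 4, and 0 to 12 when 1 library was left out. The 1 called lower became 3 with DESeq2, 2 with limma-voom, 3 with library size only, 4 with counts divided by 4 and 7 with the GC and length trend removed, and 0 with no filter or with either thinning; leaving out 1 library gave 0 to 4. The 1 variant called higher became 3 with DESeq2 and 2 with counts divided by 4, and 0 to 2 when 1 library was left out, while 0 to 1 variants were called lower. The log2 ratio of the replication-dependent sums, 0.24, was 0.04 with library size only. Signs turned 27 times. With the GC and length trend removed, the log2 fold change was -1.04 for Hist1h2ak (0.39 in the fit of all libraries, and called lower there), -0.55 for H2afx, 0.13 for H3f3b, -0.16 for Hist1h1c, -0.86 for Hist1h2ab, -1.06 for Hist2h3b, and 0.00 for H3f3a and -0.00 for H1f0. With library size only it was -0.12 for H1f0, -0.08 for Hist1h1c and -0.00 for Hist2h3b, and the sum of variant genes had a log2 ratio of -0.09. With the replicate block Hist2h3b was at -0.08. The H2A sum, at -0.06, was 0.05 with Naive counts thinned down to OFBI replicate 1 and 0.01 with all libraries thinned. Leaving out 1 library gave -0.07 to 0.15 for H1f0, -0.27 to 0.03 for H3f3b, -0.06 to 0.30 for Hist1h1c, -0.51 to 0.59 for Hist1h2ab, -0.73 to 0.02 for Hist1h3e and -0.66 to 0.52 for Hist2h3b, and for the sums -0.09 to 0.21 (variants), -0.34 to 0.13 (H2A) and -0.10 to 0.35 (H3). Apart from Hist1h2ak, no gene whose sign turned was past the threshold on either side of the turn. Over the single genes and class values compared, a call was lost 37 times and gained 19 times with the direction kept, and 461 values kept both. The cause of these shifts was not tested, beyond the fewer libraries and reads left by thinning and leaving out.

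The shared replicate numbers did not pair the libraries, as the deviations of same-numbered libraries correlated at -0.009, -0.021 and 0.008. With a replicate block, 540 genes were higher and 253 lower, of which 3 and 0 were replication-dependent histone genes, and H1fx was still called. Class sums, class medians and the split by shared sequence were added as alternatives after the data had been seen. Depth limits the low H2B genes, whose OFBI values rest on few fragments.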
